A study of Sus scrofa with 48 samples.

Results

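The interferon-stimulated genes described here are 33 genes that cells switch on when they sense an interferon, measured in the liver of 48 growing pigs. The members were listed by name, a probe was assigned to a member when its gene name or its accession gave that symbol, and the brightest tested probe of each gene carried its value. The NMI probe instead took its name from the study's list of leading genes for line, as described below. Of the 33 members, 31 had a tested probe out of 10587 genes with one, and CMPK2 and UBE2L6 were not analysed here. The pigs were castrated males (barrows) of the purebred Large White breed from a pair of lines selected apart over 8 generations for residual feed intake (RFI), the feed eaten beyond what growth and maintenance predict. In each line, 12 pigs had received a high fat, high fiber diet (HF) and 12 a low fat, low fiber diet (LF) from 74 days of age, all fed freely, and livers were taken at about 19 weeks of age in the fed state. The 4 groups were therefore low RFI pigs fed HF (RFIneg, HF), low RFI pigs fed LF (RFIneg, LF), high RFI pigs fed HF (RFIpl, HF) and high RFI pigs fed LF (RFIpl, LF), with 12 pigs each. Each line is 1 selected population, so that effects of selection and of chance divergence between lines cannot be told apart. Each pig gave 1 array of 60-base probes.

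Interferons of type I (alpha and beta) and type III (lambda) are secreted when a cell detects viral nucleic acid, and they act through receptors whose JAK1 and TYK2 kinases phosphorylate transcription factors such as STAT2. STAT2 and IRF9 then enter the nucleus in a complex and bind a short DNA element shared by the promoters of genes such as ISG15, MX1 and the IFIT family. Interferon gamma, the product of T and NK cells, uses another receptor and is known to act on IRF1, the guanylate-binding proteins (GBP) and CXCL10. In the liver both hepatocytes and Kupffer cells, the resident macrophages, answer to these signals.

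All values below are log2 intensities relative to the median of the array, and a difference of 1 is a doubling. All 48 arrays were used. Their median background-subtracted intensity ranged from 53 to 126, between 65.8% and 77.2% of probes were well above background, and every pair of arrays correlated between 0.974 and 0.990 over the tested probes, with no array repeated. Each of 6 slides held 2 pigs of every group, and 3 slides were scanned on each of 2 days. Of 6 hepatocyte markers, 5 had a tested probe (ALB, TF, TTR, SERPINA1 and CYP2E1), and their summed level was 5045 to 8482 times the array median. The brightest probe of every tested member was well above background on all 48 arrays.

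ISG15, a ubiquitin-like protein that is attached to viral and host proteins, was represented by a pair of probes. They are shown because every other member is set against ISG15 below, with the 43 bases that they share in capitals.
ISG15, brighter probe: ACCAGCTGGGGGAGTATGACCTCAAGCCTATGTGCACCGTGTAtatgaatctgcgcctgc
ISG15, other probe: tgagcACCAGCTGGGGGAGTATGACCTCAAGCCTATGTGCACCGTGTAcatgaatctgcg
The brighter probe carries a porcine RefSeq accession and the other a human one. Over the 48 pigs their levels correlated at 0.999, a description, since the probes share bases and arrays.

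The first feature of these genes was how far the pigs differed from each other within every group. ISG15 ranged from 2.96 to 9.17 (median 7.56) in low RFI pigs fed HF and from 3.19 to 9.27 (median 4.31) in low RFI pigs fed LF. It ranged from 3.82 to 9.14 (median 5.29) in high RFI pigs fed HF and from 4.14 to 9.0 (median 5.07) in high RFI pigs fed LF. The 4 groups overlapped over most of their ranges. From the lowest to the highest pig the level of ISG15 differed by 6.31 on the log2 scale, a 79.5-fold range, whereas the median range of all 10587 genes was 1.18. Only 3 of these genes had a larger SD than ISG15 (SD 2.02 over 48 pigs), and 1 had a larger SD than OAS1, a synthase of the 2-5A messenger that activates RNase L (SD 2.34, range 8.25). A range above 4 was found for 12 of the 31 members and for 2.86% of all genes, and 6 members had a range below 2.

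**Figure D1:**
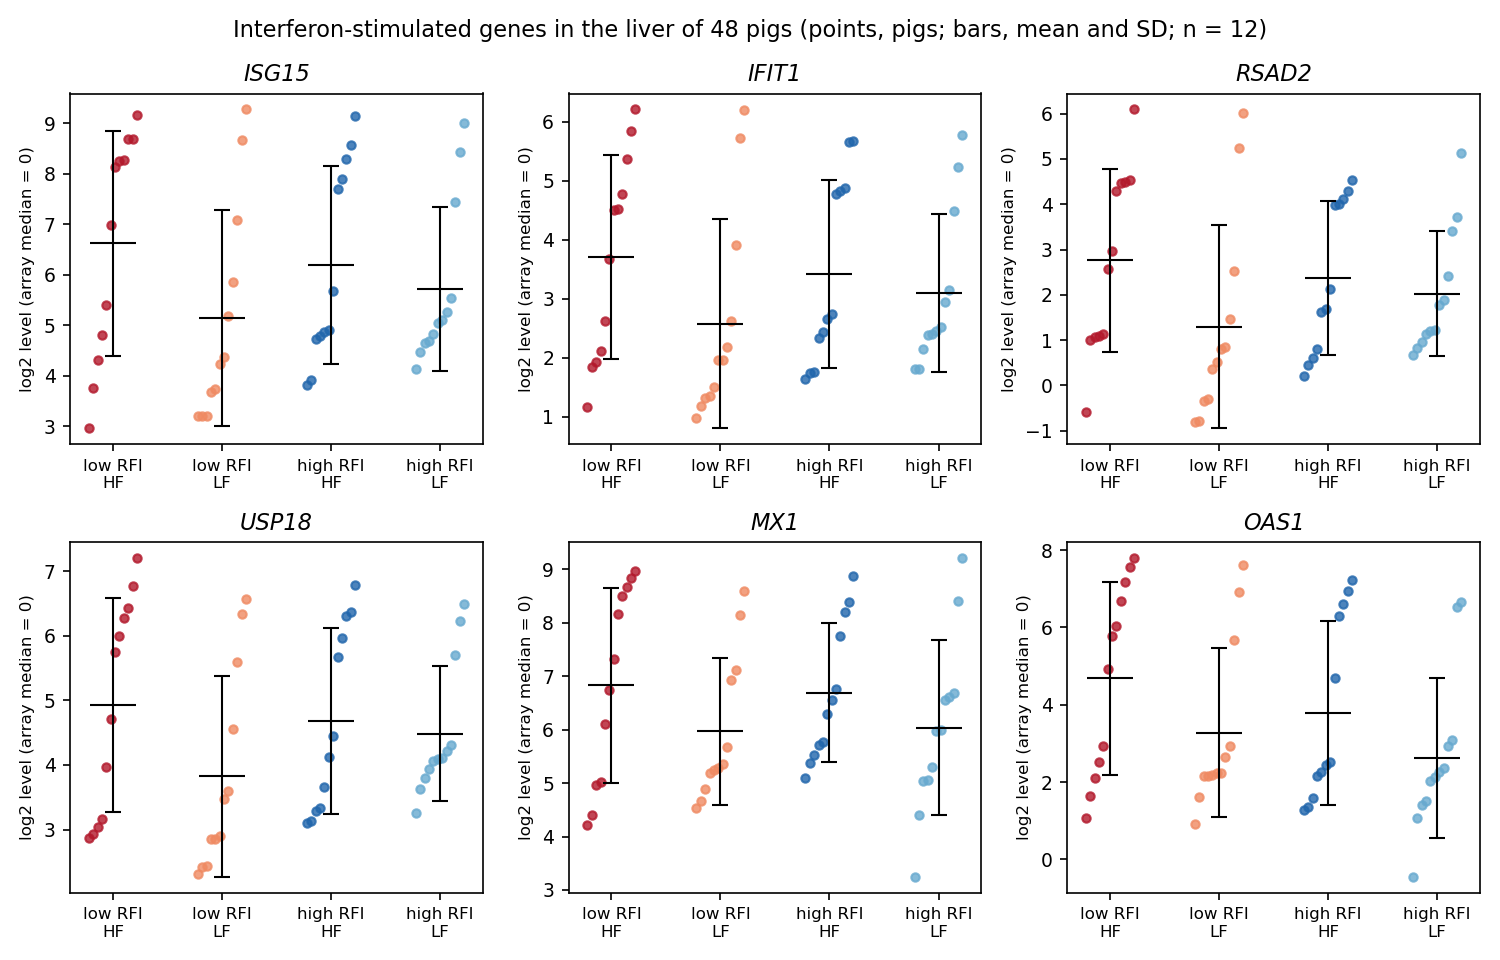
Log2 level (array median at 0) of ISG15, IFIT1, RSAD2, USP18, MX1 and OAS1 in each pig by line and diet. Points are pigs, bars the mean and SD of 12 pigs. In each of the 4 groups some pigs sit several log2 units above the others, and ISG15 spans 2.96 to 9.27 over all pigs.

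ISG15 levels fell into separate clusters. The largest gap between neighbouring pigs was 1.14 wide, against 0.47 for the next, with 30 pigs from 2.96 to 5.86 and 18 pigs from 6.99 to 9.27. Among the 18 pigs above the gap were 7 low RFI pigs fed HF, 3 low RFI pigs fed LF, 5 high RFI pigs fed HF and 3 high RFI pigs fed LF. Thus 10 of 24 low RFI and 8 of 24 high RFI pigs, and 12 of 24 pigs fed HF and 6 of 24 fed LF, lay above the gap. The scan day moved with these levels: 13 of the 24 pigs scanned on day 1 and 5 of the 24 scanned on day 2 lay above it (5, 3, 5, 2, 2 and 1 of 8 on slides 1 to 6), and 30 of 31 members had a higher mean on day 1, against 54.1% of all genes. The pigs were penned singly, the labels do not say which were slaughtered on the same day, and the part of the scan day in these levels was not tested. Each scan day held 6 pigs of every group (2 on each of its 3 slides), so that the groups were balanced over the days.

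Members differed in how far their highest pigs were those above the gap of ISG15. Of the 18 highest pigs for IFIT1, IFIT3 (both of the family that binds foreign RNA ends), RSAD2 (viperin), USP18 (which removes ISG15 from proteins and dampens the receptor), EIF2AK2 (the kinase PKR), IFIH1 (the RNA sensor MDA5) and DHX58 (its regulator LGP2), all 18 lay above that gap. The number was 17 for IRF7, DDX58 (the sensor RIG-I), OAS1, OAS2 and ISG20, and 16 for MX1, IRF9, IFIT2, IFI6, PARP14 and TRIM21. It was 15 for XAF1, IFI44 and BST2, 14 for CXCL10 and IFI35, 13 for STAT2, 12 for GBP1, GBP2 and MX2, and 9 for NMI, IRF1 and TRIM25. These counts describe the pigs and were not tested.

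**Figure D2:**
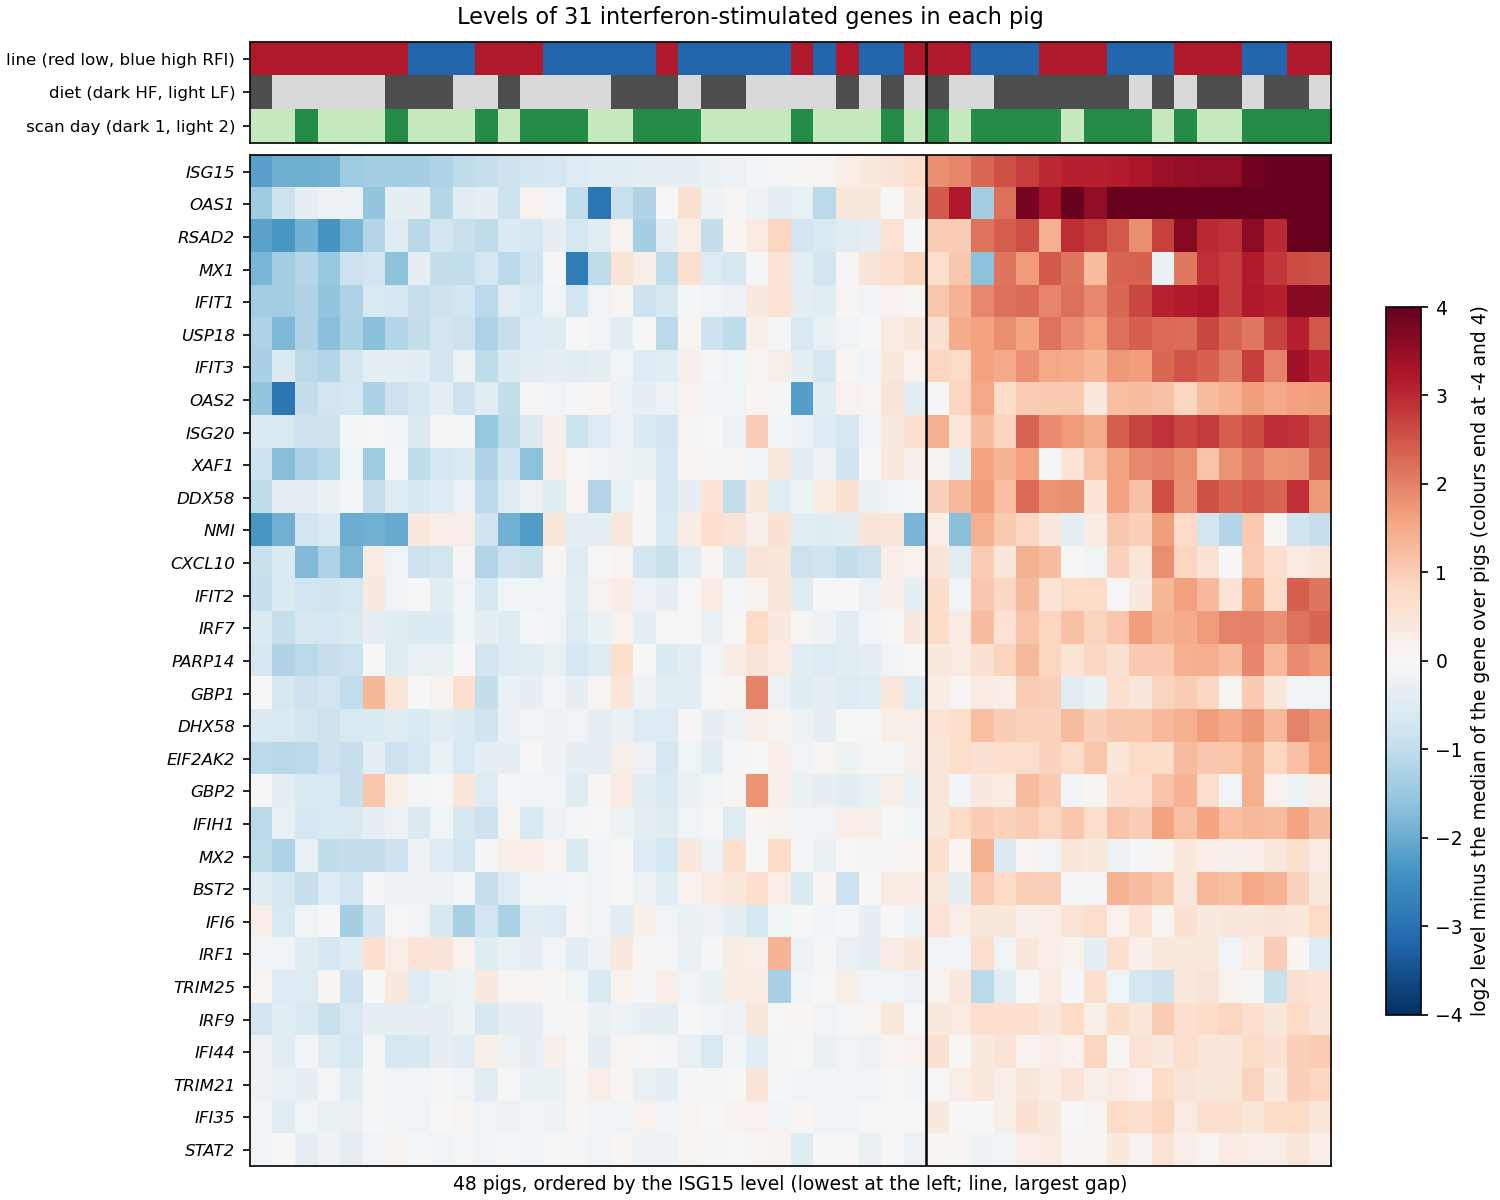
Level of each of 31 members (rows) in each of 48 pigs (columns, ordered by ISG15), as the log2 difference from the median of the gene over pigs. Rows below ISG15 are ordered by range, bars on top give line, diet and scan day, and the vertical line marks the gap between 30 and 18 pigs. Most rows turn red to the right of the line. Within each cluster GBP1, GBP2, IRF1, TRIM25 and IFI6 missed the correlation threshold with ISG15, although 16 of the 18 highest pigs for IFI6 lay right of the line.

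Because ISG15 fell into clusters, correlations with it were computed within the 30 pigs below and within the 18 above the gap (30 members, 60 relations, 2-sided permutation tests with 100000 resamples, p adjusted over the 60). An r over 0.5 was found for 17 of 30 members below and 20 of 30 above the gap. The median r over members was 0.53 below and 0.61 above the gap. At an adjusted p under 5%, 21 of 30 members correlated with ISG15 below the gap and 20 of 30 above it, all positively. These counts pool the lines, diets and scan days. No share over all genes is given beside them, so they describe the members alone. Below the gap, r for NMI was 0.46 over both lines, and 0.30 within the low and 0.043 within the high RFI line. For CXCL10 it was 0.42, 0.31 and 0.21, and for IFIT1 0.84, 0.90 and 0.66. IFIT1 followed ISG15 closely in both clusters (r = 0.84 and rho = 0.83, permutation p = 1e-05 and 1e-05, adjusted 6e-05 and 5e-05 below, and r = 0.93 and rho = 0.93, permutation p = 1e-05 and 1e-05, adjusted 6e-05 and 5e-05 above, where 1e-05 is the smallest p these permutations can give). Without the 2 pigs farthest from the median of ISG15, r was 0.8 below and 0.88 above, and within scan days 1 and 2 it was 0.75 and 0.88 below the gap. Above the gap it was 0.93 on day 1, and day 2 had too few pigs there (5).

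Other members behaved alike to different degrees. USP18 reached r = 0.83 below and 0.87 above the gap, DHX58 0.8 and 0.85, RSAD2 0.79 and 0.84, and IRF7, the factor that sustains interferon production, 0.71 and 0.87, with adjusted p from 6e-05 to 0.000158 in these permutation tests. IRF9 correlated below the gap (r = 0.81 and rho = 0.83, permutation p = 1e-05 and 1e-05, adjusted 6e-05 and 5e-05) and missed the threshold above it (r = 0.32 and rho = 0.28, permutation p = 0.194 and 0.254, adjusted 0.253 and 0.324). STAT2, with a small range of 1.05, had r = 0.14 below (adjusted permutation p = 0.557) and 0.61 above (adjusted permutation p = 0.0124). Differences between the clusters were not tested. GBP1, GBP2, IRF1, TRIM25 and IFI6 missed the adjusted threshold in both clusters, with r between 0.036 and 0.24.

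Probes of one gene did not always give the same picture, as IRF9 and IRF1 show. The IRF9 probes share no stretch of 12 bases and are both assigned to the porcine gene through their accession.
IRF9, brighter probe: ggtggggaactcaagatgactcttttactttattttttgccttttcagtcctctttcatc
IRF9, other probe: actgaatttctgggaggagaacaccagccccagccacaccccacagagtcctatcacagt
The brighter probe spanned 1.92 over pigs and the other 1.07, and the pair correlated at -0.073. Among 23 members with several tested probes, TRIM21, IRF9, STAT2, IRF1, MX2 and IRF7 each had a probe that correlated with the brightest at 0.67 or less. The 7 MX1 probes correlated with the brightest at 0.989 or more, although 3 of them overlap, and the pair for OAS1, without overlap, at 0.996. What the discordant probes detect was not tested.

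In some pigs a few genes stood apart from the others. Among them, pig 7, a high RFI pig fed LF, had the rank 16 from the highest of 48 for ISG15 (7.44) and for IFIT1 (4.49), 14 for RSAD2, 4 for OAS2 and 1 for MX2. In the same liver MX1, a GTPase that traps influenza and other viruses, was 1.65 below its median over pigs and the rank 3 from the lowest, and OAS1 was 1.40 below its median and the rank 4 from the lowest. The pig was among the 4 lowest on 6 of the 7 MX1 probes and on both OAS1 probes. It was also 1.06 below the median for TRIM25 (rank 2 from the lowest) and 0.22 below for STAT2 (rank 6).

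Pig 44, also high RFI and fed LF, was the lowest of all pigs on all 7 MX1 probes and 2.8 below the median on the brightest, whereas ISG15 was 0.50 below its median, with 14 pigs lower. Its ISG20 was 0.87 below the median (rank 3 from the lowest). Pig 2 of the same group was the lowest on both OAS1 probes and 2.93 below the median on the brightest, while OAS2 was 0.079 above its median. It was also the lowest of all pigs for DDX58 (1.18 below the median), and 1.01 below the median for MX1. Pig 26, high RFI and fed HF, had ISG15 3.43 and OAS1 4.74 above their medians but MX1 0.28 and TRIM25 0.82 below. These pigs were picked after their values were seen, and genotypes were not analysed here. OAS1 and OAS2 gave r = 0.25 and rho = 0.46, permutation p = 0.179 and 0.0123, adjusted 0.192 and 0.0154 below the gap. Above it they gave r = 0.21 and rho = 0.56, permutation p = 0.374 and 0.0175, adjusted 0.387 and 0.021, with r = 0.78 without the 2 pigs farthest from the median of OAS1. MX1 and MX2 gave r = 0.62 and rho = 0.68, permutation p = 0.00025 and 9e-05, adjusted 0.000417 and 0.00015 below the gap. Above it they gave r = -0.50 and rho = -0.15, permutation p = 0.0457 and 0.56, adjusted 0.0527 and 0.563, the r resting on 2 pigs (-0.11 without them). MX1 and MX2 are neighbours in the reference annotation (Sscrofa11.1), as are OAS1 and OAS2, GBP1 and GBP2, and IFIT1 and IFIT3.

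**Figure D3:**
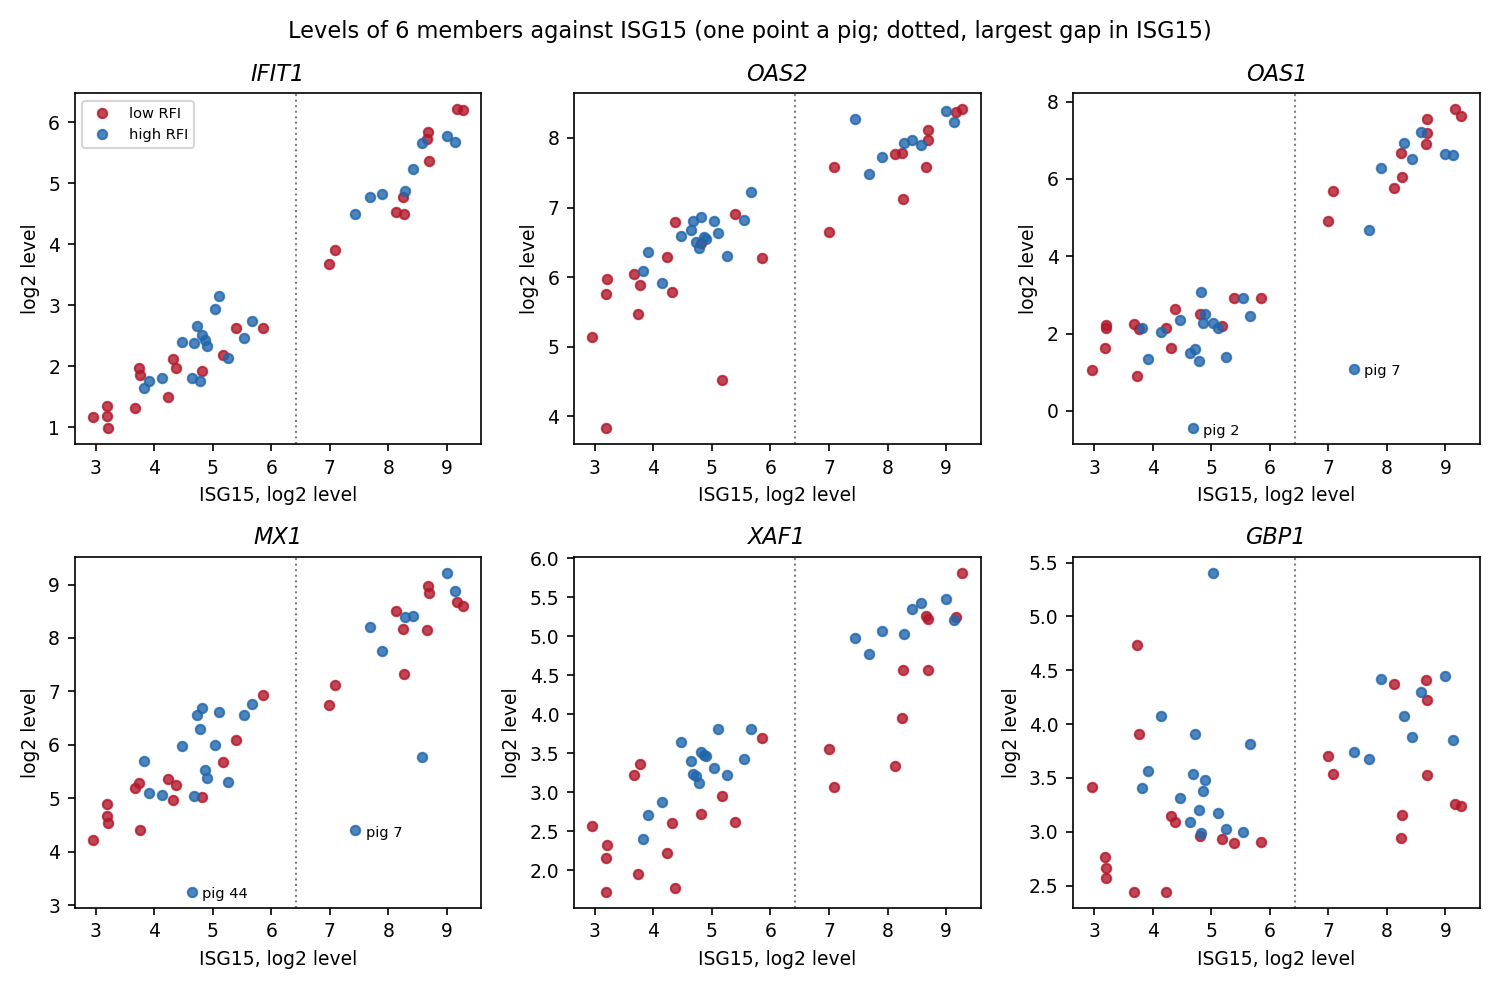
Log2 level of IFIT1, OAS2, OAS1, MX1, XAF1 and GBP1 against that of ISG15, 1 point per pig, coloured by line, with the gap of ISG15 dotted. IFIT1 follows ISG15, the marked pigs 7, 44 and 2 are low for MX1 or OAS1 relative to pigs of similar ISG15, and GBP1 has r = 0.086 and 0.036 within the clusters.

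The effect of the RFI line was then compared over the 24 pigs of each line. Of the 31 members, 4 were called for line (P under 0.01 and FC over 1.1), or 12.9%, where 6.84% of all 10587 genes were called. NMI, BST2 and IRF1 were lower in low RFI pigs (3 of 31, against 3.41% of all genes), and TRIM25 was over-expressed (1 of 31, against 3.43%). Called or not, 24 of 31 members were lower in the low RFI line, against 47.1% of all genes, but members share pigs and move together, so that these are not independent counts. For members with small line estimates the directions also differed between the scan days, a difference that was not tested. On scan day 2 alone EIF2AK2, IFIH1, IFIT1, IFIT3, IRF7, ISG15, ISG20 and USP18 were higher in the low RFI line instead. On scan day 1 alone IFIT2 was higher instead, and DDX58, DHX58, IFI6 and MX1 were lower instead. The median log2 difference over members was -0.11, and 0.0055 over all genes. At a P-BH of 5%, 2 of 31 members passed (TRIM25 and NMI), against 3.88% of all genes. The name of the NMI probe came only from the study's list of leading genes for line, chosen on these pigs. Its line effect is therefore a description and no independent evidence. Without it, 3 of 30 members (10%) were called.

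TRIM25, the ubiquitin ligase that activates RIG-I, ranged from 3.1 to 4.56 (median 4.05) in the 24 low RFI pigs and from 2.61 to 4.21 (median 3.75) in the 24 high RFI pigs. Only 4 of 24 low RFI pigs lay below the median of their high RFI counterparts, and the lines overlapped. The difference was 0.42 ± 0.11 (SE), P = 0.000378, P-BH = 0.0161, with limma. It was higher in the low RFI line on 5 of 6 slides, and was 0.56 on scan day 1 and 0.28 (P = 0.107, limma) on scan day 2. The only TRIM25 probe carries a human accession.
TRIM25 probe: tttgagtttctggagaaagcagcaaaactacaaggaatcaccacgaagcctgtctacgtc

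BST2 (tetherin, which holds budding virus at the cell surface) ranged from 0.87 to 3.1 (median 1.62) in the 24 low RFI pigs and from 1.55 to 3.31 (median 2.09) in the 24 high RFI pigs. Of the low RFI pigs, 16 of 24 lay below the high RFI median, and the ranges overlapped. The difference was -0.51 ± 0.17 (SE), P = 0.0052, P-BH = 0.0945, with limma, and was lower in the low RFI line on all 6 slides. A second, dim BST2 probe was not tested. On scan day 2 alone the difference was -0.31 (P = 0.185, limma).

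IRF1, the factor induced above all by interferon gamma, ranged from 1.45 to 2.8 (median 2.0) in the 24 low RFI pigs and from 1.68 to 3.5 (median 2.4) in the 24 high RFI pigs. Of the low RFI pigs, 20 of 24 lay below the high RFI median, with overlap. The difference was -0.34 ± 0.11 (SE), P = 0.00388, P-BH = 0.0779, with limma, and was lower on all 6 slides. On scan day 1 alone the line effect of IRF1 was -0.35 (P = 0.0223) and on scan day 2 -0.32 (P = 0.0724), called on neither. Its 3 probes disagreed, and are shown for that reason.
IRF1, brightest probe: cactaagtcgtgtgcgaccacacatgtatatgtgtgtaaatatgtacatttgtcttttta
IRF1, probe 2: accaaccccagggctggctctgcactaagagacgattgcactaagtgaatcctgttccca
IRF1, probe 3: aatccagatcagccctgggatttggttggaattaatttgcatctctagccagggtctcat
Probe 2 gave -0.29 (P = 0.0103) and correlated with the brightest at 0.945, while probe 3 gave -0.011 (P = 0.929, limma) and correlated at 0.335. With the mean of the 3 probes, the line effect of IRF1 was not called (-0.21, P = 0.0263, limma).

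NMI, a partner of STAT proteins whose level rises with interferon, ranged from -0.56 to 2.54 (median 0.99) in the 24 low RFI pigs and from 1.29 to 3.44 (median 2.24) in the 24 high RFI pigs. Of the low RFI pigs, 17 of 24 lay below the lowest high RFI pig, and 7 lay within the range of the high RFI line. The log2 difference was -1.49 ± 0.21 (SE), or 0.357 times the level, and it was lower on all 6 slides (-2.23 to -0.36).
NMI probe: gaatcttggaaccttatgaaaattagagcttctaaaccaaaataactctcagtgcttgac

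**Figure D4:**
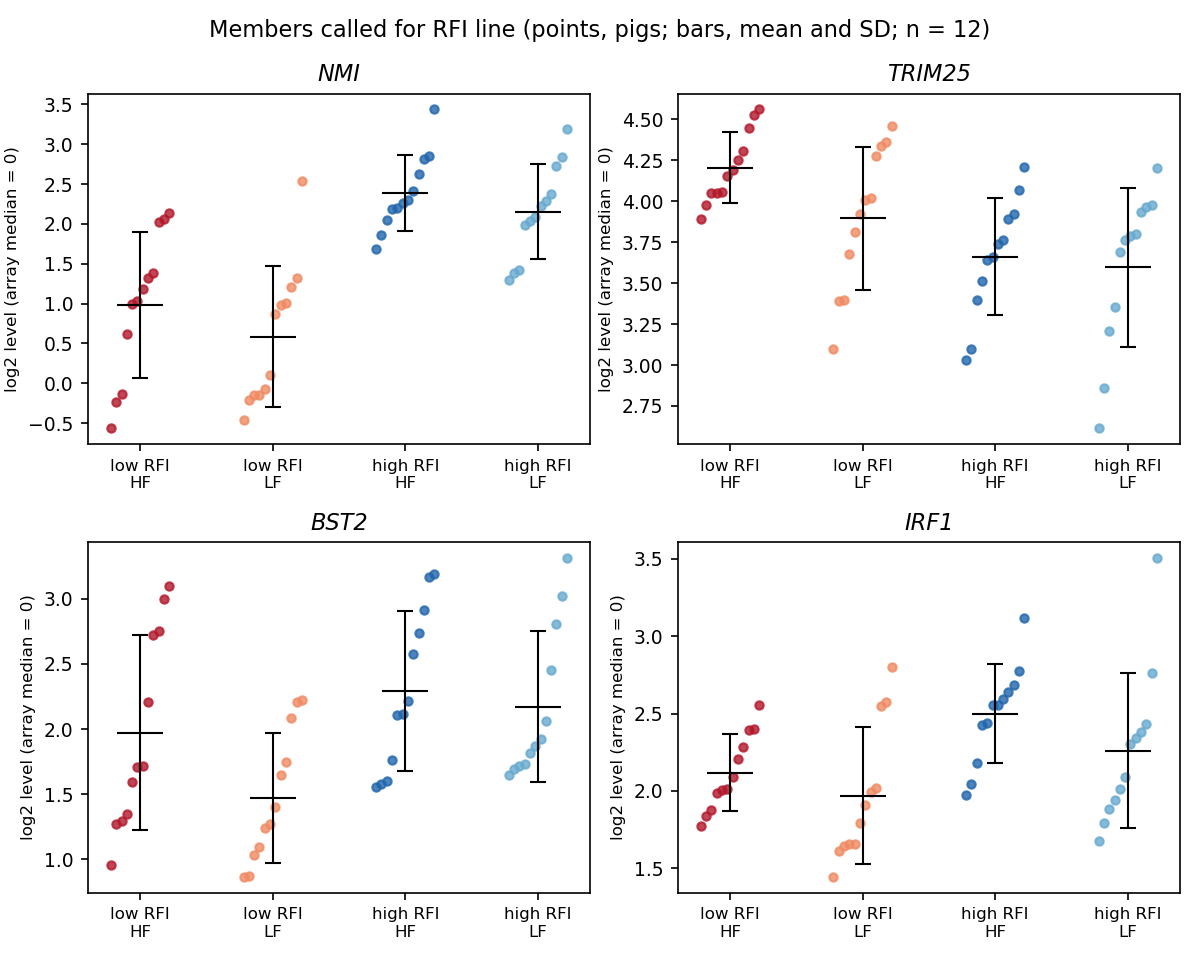
Log2 level (array median at 0) of NMI, TRIM25, BST2 and IRF1 in each pig by line and diet, with the mean and SD of 12 pigs. High RFI pigs sit above most low RFI pigs for NMI, and the lines overlap for the other 3 genes.

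The remaining 27 members were not called for line. For ISG15 itself the difference was -0.072 ± 0.56, P = 0.898, with a 95% interval of -1.2 to 1.06, which includes a doubling in either direction. Among the sensors, DDX58 differed by 0.044 ± 0.33, IFIH1 by -0.063 ± 0.21 and DHX58 by 0.019 ± 0.23. Among the factors, STAT2, whose pigs spread little, had the narrowest interval of all members (-0.17 to 0.075), while IRF7 differed by -0.024 ± 0.26 and IRF9 by -0.17 ± 0.14. In the ubiquitin-like system, USP18 differed by -0.21 ± 0.40 and TRIM21, an antibody receptor inside cells, by -0.078 ± 0.10.

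Among the antiviral effectors, OAS1 differed by 0.77 ± 0.64, P = 0.233 (interval -0.51 to 2.06), RSAD2 by -0.17 ± 0.52, P = 0.746, IFIT1 by -0.11 ± 0.45, P = 0.802 and MX1 by 0.035 ± 0.43, P = 0.937. XAF1, an antagonist of apoptosis inhibitors, differed by -0.56 ± 0.30, P = 0.0721, and OAS2 by -0.44 ± 0.28, P = 0.12. The other effectors, IFIT2, IFIT3, MX2, EIF2AK2, ISG20 (an RNA exonuclease), IFI6 and IFI44, lay between -0.15 (MX2) and 0.097 (IFI44). IFI35 differed by -0.11 ± 0.092 and PARP14, an ADP-ribosyltransferase, by -0.19 ± 0.23. Values after ± are SE and P-values are from limma, and none shows that the lines were alike.

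CXCL10, GBP1 and GBP2, associated with interferon gamma, had negative line estimates larger in size than that of the median member. So had XAF1 and OAS2 among the antiviral effectors, and none of these genes was called in limma. CXCL10, a chemokine for activated T cells, ranged from 3.39 to 6.45 (median 4.9) in the 24 low RFI pigs and from 4.33 to 7.07 (median 5.32) in the 24 high RFI pigs. It differed by -0.50 ± 0.22 (SE), P = 0.0271, P-BH = 0.247, and was lower on all 6 slides. GBP1, a guanylate-binding GTPase, ranged from 2.44 to 4.73 (median 3.15) in the 24 low RFI pigs and from 2.99 to 5.4 (median 3.62) in the 24 high RFI pigs, and differed by -0.40 ± 0.17 (SE), P = 0.0247, P-BH = 0.234. It was called only when pig 29 or pig 33 was left out. All 3 GBP1 probes gave similar values (-0.43 to -0.36). GBP2 differed by -0.29 ± 0.17, P = 0.0912. At an unadjusted P under 0.05 there were 6 of 31 members, where 14.8% of all genes passed.

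In bulk liver, fewer cells of a type and less RNA per cell cannot be told apart. Of 9 tested Kupffer and macrophage markers (of 12 in the list), 8 were lower in the low RFI line, 0 were called and 4 had P under 0.05 in limma (CSF1R, C1QA, VSIG4 and CLEC4F). Their summed level was 156 to 348 times the array median in low RFI pigs and 189 to 375 in high RFI pigs, with medians of 232 and 244. Of 10 tested T and NK markers, 7 were lower, 0 were called and 2 had P under 0.05 (KLRK1 and GZMA). All 3 tested plasmacytoid dendritic cell markers (IL3RA, TCF4 and TLR7) had estimates of -0.014 to -0.24 without a call. All 4 cholangiocyte markers, of the bile duct epithelium, had lower estimates in the low RFI line and 1 was called, KRT7 (-0.35 ± 0.12, P = 0.00646, P-BH = 0.108, limma), with 22 of 24 low RFI pigs below the high RFI median. Their summed level was 2.45 to 8.89 (median 4.3) times the array median in low RFI and 2.91 to 11.1 (median 5.39) in high RFI pigs. In the low RFI line, all 5 hepatocyte, all 5 endothelial, both erythroid and 4 of 6 stellate and fibroblast markers had higher estimates. Lower estimates were found for all 3 neutrophil and 3 of 4 B and plasma markers, and none of these lists held a call. The part of all these cells in the line differences of BST2, CXCL10, GBP1 and IRF1 was not tested.

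**Figure D5:**
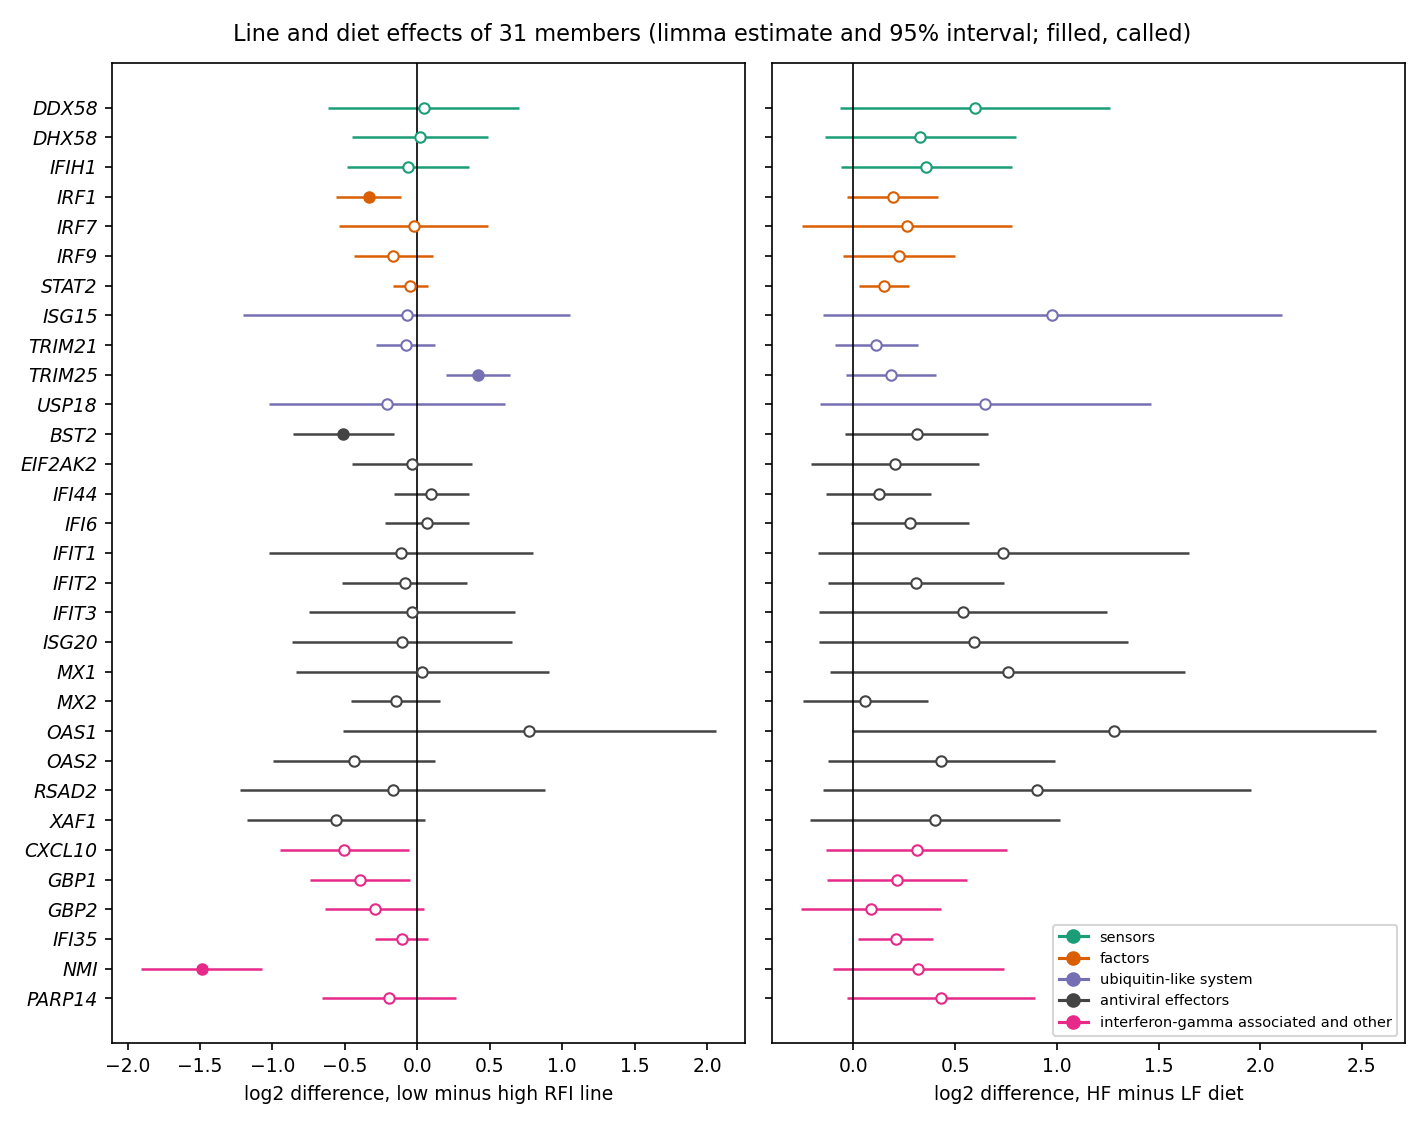
Log2 differences between lines (low minus high RFI) and between diets (HF minus LF) for 31 members, grouped by role, as the limma estimate with its 95% interval, filled where called. Of 31 members, 4 are filled for line and 0 for diet, where every estimate lies above 0.

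Every member had a higher mean with the HF diet, and none passed the test. For diet, 0 of 31 members were called in limma, 0 with the ANOVA without moderation and 2 had P under 0.05, where 4.18% of all genes were called and 14.3% had P under 0.05. Every one of the 31 estimates was above 0, with folds of 1.04 to 2.43 and a median log2 difference of 0.31, while 44.1% of all genes were higher with HF. Since the members move together over pigs, these are not 31 separate observations. ISG15 ranged from 2.96 to 9.17 (median 6.33) in 24 pigs fed HF and from 3.19 to 9.27 (median 4.93) in 24 pigs fed LF. It differed by 0.98 ± 0.56, P = 0.0882, 95% interval -0.15 to 2.11, and was higher with HF on 5 of 6 slides. OAS1 had the largest estimate (1.28 ± 0.64, P = 0.0512), with RSAD2 at 0.90 ± 0.52, P = 0.0905, MX1 at 0.76 ± 0.43, P = 0.0881, IFIT1 at 0.74 ± 0.45, P = 0.11 and USP18 at 0.65 ± 0.40, P = 0.116. DDX58 stood at 0.60 ± 0.33, P = 0.0755, CXCL10 at 0.31 ± 0.22, P = 0.166 and GBP2 at 0.085 ± 0.17, P = 0.619. The smallest P-values were those of STAT2 (0.15 ± 0.061 (SE), P = 0.0163, P-BH = 0.237) and IFI35 (0.21 ± 0.092 (SE), P = 0.0284, P-BH = 0.285), a partner of NMI, both higher with HF on all 6 slides. With slide as a block, the diet effect of STAT2 was called (0.15, P = 0.00973). It was also called when any 1 of pigs 25, 29, 30, 37 and 42 was left out. With the mean over its 6 probes, which disagree, the diet effect of STAT2 was 0.085 (P = 0.141, limma). With the ISG15 level of each pig as a covariate, a fit described further on and chosen after seeing the data, 12 of the 30 other members had a diet estimate below 0.

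Cell type markers also differed in direction between diets, with 0 called. All 5 hepatocyte markers had lower estimates with HF, 3 of them with P under 0.05 in limma (ALB, SERPINA1 and CYP2E1), and their summed level was 5045 to 8278 (median 7025) times the array median with HF and 6319 to 8482 (median 7225) with LF. Of 9 Kupffer and macrophage markers, 8 had higher estimates with HF. VSIG4 and CLEC4F among these, and CD68, which was lower, had P under 0.05, and the summed level was 189 to 348 (median 244) with HF and 156 to 375 (median 230) with LF. All 4 cholangiocyte markers had higher estimates with HF, with P under 0.05 for EPCAM, and a summed level of 3.55 to 11.1 (median 4.93) with HF and 2.45 to 8.22 (median 4.23) with LF. All 3 plasmacytoid dendritic cell markers had higher estimates with HF (IL3RA 0.013, TCF4 0.049 and TLR7 0.17), and both erythroid ones had lower estimates. The remaining lists were mixed, with 3 of 5 endothelial, 4 of 6 stellate and fibroblast and 6 of 10 T and NK markers higher with HF. For B and plasma cells 1 of 4 markers was higher, and for neutrophils 1 of 3. Among the markers of these lists, HBB (erythroid, -0.57, P = 0.0109), VWF (endothelial, -0.33) and ACTA2 (stellate and fibroblast, -0.27) had lower estimates with HF. COL1A2 (stellate and fibroblast, 0.23) had a higher one, and each of these 4 had P under 0.05 in limma. The part of these cell types in the diet estimates of the members was not tested.

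The line by diet interaction asks whether the line difference depended on the diet. For the members, 0 of 31 were called with limma and with the ANOVA, and 0 had P under 0.05, where 0.331% of all genes were called and 1.99% had P under 0.05. The estimates ran from -0.091 (IRF1) to 1.12 (RSAD2). The interaction of ISG15 was 1.0 (SE 1.12, P = 0.377, limma).

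Because ISG15 varied so widely between pigs, the line effect was computed again with the ISG15 level of each pig as a covariate, an analysis chosen after seeing the data. It asks which members differ between lines at a given level of ISG15, with 1 slope for both lines. Of 30 members, 9 were called (30%), where 7.42% of all other genes were, and 8 of 29 without NMI. Of these 9, 7 were lower (3.79% of all genes) and 2 higher (3.63%). ISG15 is itself a member and most other members vary with it. With the covariate the SEs of OAS1, OAS2 and XAF1 were smaller than without it, at similar estimates. The shares of members and of all genes are therefore not like for like, and show no excess of line effects among members. The 4 members above were called again. OAS2 (-0.41 ± 0.14, P = 0.00444, P-BH = 0.079), CXCL10 (-0.48 ± 0.15, P = 0.00255, P-BH = 0.055), XAF1 (-0.52 ± 0.13, P = 0.000166, P-BH = 0.00814), and IRF9 (-0.15 ± 0.055, P = 0.00969, P-BH = 0.127) were under-expressed in the low RFI line at equal ISG15, and OAS1 (0.85 ± 0.25, P = 0.00166, P-BH = 0.0417) was over-expressed. Over the 48 fits that each left out 1 pig, 8 to 10 members were called. IRF9 was called in only 19 of those fits, its other probe gave 0.046 (P = 0.442, limma), and the other 8 were called in all 48.

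The OAS genes thus differed in sign between lines at equal ISG15. OAS1 ranged from 0.91 to 7.8 (median 2.78) in the 24 low RFI pigs and from -0.45 to 7.23 (median 2.32) in the 24 high RFI pigs. OAS2 ranged from 3.83 to 8.41 (median 6.57) in the 24 low RFI pigs and from 5.91 to 8.39 (median 6.81) in the 24 high RFI pigs. Within single scan days the covariate fit called fewer members, 4 on day 1 (TRIM25, XAF1, BST2 and NMI, where 4.01% of all genes were called) and 1 on day 2 (NMI, 3.46%), and all 9 kept their direction on both days. OAS1 was 0.81 on day 1 (P = 0.0654) and 0.85 on day 2 (P = 0.0122, limma). Its estimate was 0.70 to 0.91 when any 1 pig was left out. The high RFI pigs 2 and 7, described above as low for OAS1, are part of this fit and were not left out together. OAS2 was -0.48 on day 1 (P = 0.0326) and -0.38 on day 2 (P = 0.0483, limma). Neither was called on either day. The pair of OAS1 probes gave 0.85 and 0.94, and the 5 OAS2 probes gave -0.53 to -0.24. The probes of OAS1 are shown because its sign was opposite to that of OAS2, and they share no stretch of 12 bases with each other.
OAS1, brighter probe: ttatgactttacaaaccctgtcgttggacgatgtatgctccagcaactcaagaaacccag
OAS1, other probe: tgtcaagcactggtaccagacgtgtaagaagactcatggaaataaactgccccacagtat
XAF1 was -0.61 on day 1 (P = 0.00441) and -0.42 on day 2 (P = 0.0264, limma), and its second probe gave -0.21 (P = 0.0211, limma), which was not called. CXCL10 was -0.44 on day 1 (P = 0.0269) and -0.52 on day 2 (P = 0.0438, limma), called on neither day. BST2 was -0.57 on day 1 (P = 7.65e-05) and -0.40 on day 2 (P = 0.018, limma).

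GBP1, GBP2 and CXCL10 varied together over pigs in both clusters, and IRF1 did so with CXCL10 and GBP1. Correlations between 15 pairs of members were computed in both clusters (30 relations, permutation tests as above). GBP1 and CXCL10 correlated below the gap (r = 0.72 and rho = 0.68, permutation p = 1e-05 and 6e-05, adjusted 2.31e-05 and 0.000129) and above it (r = 0.77 and rho = 0.82, permutation p = 0.00019 and 5e-05, adjusted 0.000335 and 0.000115). GBP1 and GBP2, close relatives with possible cross-hybridisation, reached r = 0.96 below and 0.91 above. IRF1 correlated with CXCL10 below the gap (r = 0.67 and rho = 0.71, permutation p = 3e-05 and 4e-05, adjusted 6e-05 and 0.0001) and above it (r = 0.58 and rho = 0.71, permutation p = 0.0124 and 0.0012, adjusted 0.0155 and 0.0018). IRF1 and GBP1 gave r = 0.53 and rho = 0.69, permutation p = 0.00419 and 8e-05, adjusted 0.00599 and 0.00015 below the gap, and r = 0.59 and rho = 0.66, permutation p = 0.00914 and 0.00359, adjusted 0.0119 and 0.0049 above it. IRF1 and GBP2 gave r = 0.56 and rho = 0.68, permutation p = 0.00314 and 7e-05, adjusted 0.00471 and 0.00014 below the gap, but r missed the threshold above it (r = 0.41 and rho = 0.49, permutation p = 0.0905 and 0.0422, adjusted 0.101 and 0.0469). Without the 2 pigs farthest from the median of GBP1, r between GBP1 and CXCL10 was 0.68 below and 0.76 above. Below the gap it was 0.84 on scan day 1 and 0.68 on scan day 2. CXCL10 and ISG15 gave r = 0.42 below and 0.13 above. GBP1 and ISG15 gave r = 0.086 below and 0.036 above the gap (permutation p = 0.658 and 0.887), although the difference between these correlations was not tested.

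A wider list of 121 ligands, receptors, kinases, factors, inhibitors, sensors and other induced genes was examined beside the members, and 80 had a tested probe. Of the interferons and related ligands these were only IFNG, IL15 and IL18, so that interferons alpha, beta and lambda were not analysed here. For line, 8 of 80 were called (10%, against 6.84% of all genes), 7 of them lower in the low RFI line. The receptor chains IFNGR1 (-0.24 ± 0.07, P = 0.00151, P-BH = 0.042), through which interferon gamma acts, and IL10RB (-0.43 ± 0.11, P = 0.000439, P-BH = 0.0179), shared by the receptors of interferon lambda and IL10, were under-expressed. The kinase JAK2 was over-expressed (0.15 ± 0.042, P = 0.000958, P-BH = 0.0307). Among induced genes, SAMHD1, which depletes nucleotides (-0.32 ± 0.083, P = 0.000333, P-BH = 0.0148), and PSMB10, a subunit of the immunoproteasome (-0.32 ± 0.096, P = 0.00157, P-BH = 0.0428), were under-expressed, with 22 of 24 low RFI pigs below the high RFI median for each. TRIM26 (-0.20 ± 0.064, P = 0.00301, P-BH = 0.0658), GBP4 (-0.42 ± 0.14, P = 0.00509, P-BH = 0.0934) and GBP6 (-0.45 ± 0.16, P = 0.00664, P-BH = 0.11) were also under-expressed, with P-BH above 5% in limma. For diet 0 of 80 were called in limma and 9 had P under 0.05, where 4.18% and 14.3% of all genes did so. Fewer line calls were made within scan days of 24 pigs each, while the estimates were larger on 1 day than on the other. IFNGR1 was -0.33 on day 1 and -0.14 on day 2, IL10RB -0.66 and -0.20, JAK2 0.22 and 0.073, and PSMB10 -0.39 and -0.25. SAMHD1 was -0.21 on day 1 and -0.43 on day 2, GBP4 -0.30 and -0.54, GBP6 -0.24 and -0.65, and TRIM26 -0.24 and -0.16. Of the 8 genes, 4 were called on scan day 1 (IFNGR1, IL10RB, JAK2 and PSMB10) and 1 on scan day 2 (SAMHD1), where 3.6% and 3.5% of all genes were called, and all 8 kept their direction on both days.

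Outside both lists, the named genes most like ISG15 over the 48 pigs included, in order, ZNFX1, TRIM5, TRIM46, ISG12(A), CDHR4, CENPT, NPPA, TREX1 and SHISA5. Their r with ISG15 was 0.068 to 0.79 within the 30 pigs below the gap and 0.58 to 0.91 within the 18 above it. None was called for line or diet in limma, and line differences ran from -0.18 to 0.21.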

How the data were processed

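Liver RNA of 48 pigs was hybridised to 1-colour arrays, 1 per pig. The authors deposited the scanner output (Feature Extraction 10.7.3.1), whose background-subtracted intensity was used here, and a table of log2 values, which equals the log2 median intensity minus the median of each array (largest SD of the difference 2.24e-07) and was an alternative. R 2.10.0 is named in the submitters' processing notes.

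Here 483 outlier spots were set to missing (0 spots were saturated), log2 values were centred on the array median, and 45236 probes were tested, each well above background on 12 arrays or more. Symbols came from accessions through the Sscrofa11.1 table (7062 probes), the scanner output (16894) or the study's supplement (21). Of 78 member probes, 76 were tested. Line, diet and interaction were fitted with limma 3.58.1 in R 4.3.3 across all probes, tested on simulated data. A call needed P under 0.01 and FC over 1.1, and P-BH is the Benjamini-Hochberg value. The paper names an ANOVA with these terms, run as an alternative. Permutation tests were 2-sided, in Python 3.11.15.

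Members and lists were chosen with earlier results of these data known. All members with a tested probe, the wider-list genes called for line or diet, and the 10 genes most like ISG15 were named by rule, of which 1 is not reported here. The number of arrays limits the precision. The pigs are separate animals. Alternatives covered centring, background, filters, blocks, scan days, slides, probes, and, chosen after seeing the data, the ISG15 covariate, clusters and leaving out each pig.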

Additional observations from a re-analysis of the deposited data

Results flagged for a closer look

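IFI27L2, a member of the IFI27 family on the wider list, differed between lines in opposite directions under the diets, as an interaction of -0.59 ± 0.18 (P = 0.00215, limma, P-BH = 1). Its mean was 1.67 ± 0.25 (SD, n = 12) in low RFI and 1.98 ± 0.29 in high RFI pigs fed HF, and 1.81 ± 0.22 and 1.53 ± 0.46 in those fed LF. It was the only one of 80 tested genes of the wider list called for the interaction, where 0.331% of all genes were called, and not on scan day 1 alone.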

How the results depend on the processing

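The 4 line calls were made under all settings that kept both scan days and 1 probe per gene, and 4 or 5 members were called when any pig was left out. With ISG15 as a covariate 9 were called, and on scan day 2 alone 1 (NMI, where 3.5% of all genes were called). For diet, 1 was called with slide as a block (STAT2, 4.57% of all genes) and 0 to 1 when a pig was left out. In the wider list 1 gene was called for line on scan day 2 (SAMHD1), 1 for diet with normexp correction (IRF2, 4.29% of all genes) and 1 on scan day 2 (IFI27L2, 2.01%), 0 to 3 for diet when a pig was left out, and 0 for the interaction on scan day 1 (0.274%). Small line effects changed sign. On scan day 1 they were -0.43 (DDX58), -0.25 (DHX58), -0.035 (IFI6), 0.038 (IFIT2) and -0.46 (MX1), with -0.25 for MX2 by diet. On scan day 2 they were 0.015 (EIF2AK2), 0.18 (IFIH1), 0.21 (IFIT1), 0.22 (IFIT3), 0.078 (IRF7), 0.37 (ISG15), 0.23 (ISG20) and 0.25 (USP18). With the mean over probes they were -0.021 (DHX58), -0.0030 (IFI44) and 0.0076 (STAT2), and with the covariate 0.0072 (IFIT3) and 0.0075 (IRF7). Diet effects below 0 with the covariate were -0.065 (DHX58), -0.14 (EIF2AK2), -0.057 (GBP2), -0.063 (IFI44), -0.034 (IFIT1), -0.052 (IFIT3), -0.16 (IRF7), -0.013 (ISG20), -0.096 (MX2), -0.031 (TRIM21), -0.039 (USP18) and -0.082 (XAF1). The cause was not tested, and each scan day holds 24 pigs. Of 495 line and 495 diet values under alternatives, 467 and 481 kept their direction and side of the threshold. Members with r over 0.5 numbered 17 below the gap, and 12 to 16 under every alternative run, and 20 above it, with 17 to 22 under the alternatives. No paired analysis was possible because the numbers in the labels name pigs and pair none.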
